A study of Mus musculus with 4 samples.

Results

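Of the 5482 merged Eya1 ChIP-seq intervals on nuclear chromosomes, 1488 (27.1%) were single promoters listed in replicate 1 and not in replicate 2. They were selected on the peak lists themselves: each was narrower than 2000 bp, overlapped a replicate 1 peak and no replicate 2 peak, lay within 1 kb of an annotated transcription start site (TSS), and did not lie within 1 kb of both 5′ ends of a divergent pair of protein-coding genes. The study immunoprecipitated Eya1 with anti-FLAG beads from kidneys of Eya1 HA-FLAG knockin mouse embryos at embryonic day E13.5, when the organ still holds many nephron progenitors, and used 80 kidneys for each assay. There were 2 Eya1 ChIP samples, 1 input control and 1 IgG control, and the peak lists of the ChIP samples were analysed here. Both replicates had the same genotype, stage and tissue, so presence in one list alone separated samples of 1 group and not conditions. All kidney cell types were pooled, and no wild-type or untagged ChIP was analysed here. The lists hold start and end positions without score or depth, so the strength of a peak, and how near a promoter came to being listed in replicate 2, could not be read.

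Eya1 is a transcriptional coactivator with a protein phosphatase domain that has no DNA-binding domain of its own and reaches DNA through partners such as the homeodomain factor Six2, with which it maintains nephron progenitors. Most promoters of broadly expressed mammalian genes are CpG islands, stretches in which the dinucleotide CpG has not been lost. Such promoters tend to carry short sites close to the TSS for ETS factors, SP factors, NRF1, NF-Y, YY1 and BANP, while tissue-restricted genes more often have promoters poor in CpG. RE1 is the long element recognised by the zinc-finger repressor Rest, which recruits corepressors to neuronal genes in non-neuronal cells.

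The promoter sequences below show the short motifs that the comparisons turn on, each as 30 bases around the match nearest the TSS, read 5′ to 3′ on the strand of the gene from the RefSeq assembly GRCm38.p6 (mm10), with the matched bases in capitals. Parl, a rhomboid protease of mitochondria, and Hes6, a bHLH factor of the Hairy family, hold the ETS motif (CCGGAAG). Fbxo42, an F-box protein, and Ercc6, a DNA repair ATPase, hold the NRF1 motif (GCGCATGCG). Ipo9, an importin, and Lipt2, a lipoyl transferase, hold the NF-Y motif (CCAAT) on the opposite strand. Prmt1, an arginine methyltransferase, and Rab3gap1, a Rab GTPase regulator, hold the YY1 motif (AAGATGGCG). Cdc5l, a splicing factor, and Mrtfb, a coactivator of serum response factor, hold the BANP motif (TCTCGCGAG). The capitals mark its match on the opposite strand, and in both genes it also matches on the gene strand from the base before them. Cwf19l1 and Umps, the latter an enzyme of pyrimidine synthesis, hold the cAMP response element (CRE, TGACGTCA).
Parl, chr16:20302372-20302401, minus strand: ttttcttcgccCCGGAAGtgatttctaggc
Hes6, chr1:91413207-91413236, minus strand: ggtcccgcgggCCGGAAGactccggagagc
Fbxo42, chr4:141147899-141147928, plus strand: ccccgcctcaGCGCATGCGcactgcgcgct
Ercc6, chr14:32513509-32513538, plus strand: caggcctaggGCGCATGCGctaaggtttgt
Ipo9, chr1:135430486-135430515, minus strand: gcggcttcgcggATTGGccgtacgcgggag
Lipt2, chr7:100159343-100159372, plus strand: cgttgcaggagcATTGGctacggcggctac
Prmt1, chr7:44986302-44986331, minus strand: gactcgggtgAAGATGGCGgcagccgaggc
Rab3gap1, chr1:127868799-127868828, plus strand: tccgctccgcAAGATGGCGgcggacagtga
Cdc5l, chr17:45433727-45433756, minus strand: actctggcatCTCGCGAGAgttttgttttc
Mrtfb, chr16:13256484-13256513, plus strand: ggagcgaagtCTCGCGAGAtccggtggtag
Cwf19l1, chr19:44135865-44135894, minus strand: gctgagtggtgTGACGTCAtatttctgcgc
Umps, chr16:33967017-33967046, minus strand: ggacttctgggTGACGTCAcgggccccaag

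The long elements of Six2 and Rest are shown because they name the partners that Eya1 was studied with. The SIX2 motif matched in 4 of the 1488 windows, 3 of which are printed, at Trmt1 (a tRNA methyltransferase), Cs (citrate synthase) and Nars2 (the mitochondrial asparaginyl-tRNA synthetase). The RE1 element was allowed 2 mismatches over its 17 bases, and the printed matches at Gins1 (a replication factor), Pes1 (a ribosome assembly factor) and Syncrip (an RNA-binding protein) had 1, 2 and 2. Most RE1 matches in the regions had 2 mismatches. Exact matches were found at Oprm1, centred 37 bp downstream of the TSS, and at Nbeal1, 197 bp upstream. They are not printed because the matches shown lay nearer the TSS.
Trmt1, chr8:84689450-84689479, plus strand: gtgtgttggGAAATCTGAGCCgcgggcctt
Cs, chr10:128337702-128337731, plus strand: aggggggcgGGCTCAAGTTTCgggcagagg
Nars2, chr7:96951377-96951406, plus strand: tatttctgaGAAACCTGAGACagcccttgc
Gins1, chr2:150909579-150909608, plus strand: agcctaTTTGGCGCCAAAGCGAGgagctgg
Pes1, chr11:3963952-3963981, plus strand: gggtccTTCAGGGCCCTAGGCAGggcacgt
Syncrip, chr9:88482543-88482572, minus strand: cgtcacGTCAGCGCGGGAGAGAGaaagagc

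Several sites stood together in some promoters. In 17 of the regions the 120 bases before the TSS held at least 3 different motifs and no annotated exon base, and 4 of those stretches are printed with every match in capitals. Cfdp1, a chromatin-associated protein, held NF-Y, ETS and E-box (CACGTG) matches. The clock repressor Cry1 held E-box, NF-Y and SP (GGGGCGGGG) matches, the thioesterase gene Abhd10 held NRF1, SP and E-box matches, and Dpy19l3, a C-mannosyltransferase, held ETS, SP and NF-Y matches.
Cfdp1, chr8:111854292-111854411, minus strand: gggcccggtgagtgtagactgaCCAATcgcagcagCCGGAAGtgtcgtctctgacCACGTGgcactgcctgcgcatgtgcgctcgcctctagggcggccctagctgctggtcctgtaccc
Cry1, chr10:85185065-85185184, minus strand: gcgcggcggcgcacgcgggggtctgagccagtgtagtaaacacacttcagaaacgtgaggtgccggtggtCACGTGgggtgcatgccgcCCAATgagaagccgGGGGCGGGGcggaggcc
Abhd10, chr16:45742956-45743075, minus strand: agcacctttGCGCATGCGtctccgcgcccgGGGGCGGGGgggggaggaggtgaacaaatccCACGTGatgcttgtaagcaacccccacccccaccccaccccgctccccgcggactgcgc
Dpy19l3, chr7:35754455-35754574, minus strand: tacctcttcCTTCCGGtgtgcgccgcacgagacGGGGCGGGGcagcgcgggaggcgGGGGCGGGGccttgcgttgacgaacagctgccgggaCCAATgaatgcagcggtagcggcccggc

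The selection ran from 1847 intervals that overlapped replicate 1 alone. Of these, 57 lay beyond 1 kb of any TSS, 88 more reached the width limit and 214 more covered divergent pairs. Each of the remaining 1488 consisted of 1 peak, and together they made up 34.8% of all replicate 1 peaks. Beside them, 1743 single promoters were listed in both replicates and 723 in replicate 2 only, under the same limits. At the width limit, Sart1 (1997 bp) and Lamc1 (1992 bp) were inside and Ppp1r18 (2002 bp) was outside. At the limit on distance, Ppp1r9b lay 970 bp from a TSS and was kept, whereas Gm11168 at 1076 bp was not. The smallest gap to a replicate 2 peak was 20 bp, at Wwp2, and was followed by 56 bp at Plekhm2 and 62 bp at Rcor1, while Ube2o, with a shared overlap of 15 bp, counted as present in both. Most of the regions were far from any replicate 2 peak: the median gap was 104 kb, and 56 of the 1488 had a replicate 2 peak within 1000 bp.

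The ends of the regions at Eya1 followed the ends of exons. The Eya1 gene itself (chr1:14168954-14310235, minus strand) held 8 replicate 1 peaks and no replicate 2 peak, and 7 of them enclosed annotated Eya1 exons with 48 to 79 bp of flanking sequence on either side. Among the 1488 regions, chr1:14231359-14231602 enclosed the Eya1 exon at 14231413 to 14231552 with margins of 54 and 50 bp, and met the rule because a shorter Eya1 transcript is annotated to start in that exon. The region chr1:14183103-14183544 enclosed a pair of Eya1 exons, the outer edges of which lay 54 and 49 bp inside the interval, and met the rule through the start of a microRNA gene, Gm22616, that lies within Eya1. The former of these 2 regions was 57.4% exonic and the latter 53.6%, and CpG observed/expected around their anchors was 0.35 and 0.09. What set these edges was not tested, and the comparisons of CpG content and motifs were also run on the 1486 other regions.

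**Figure D1:**
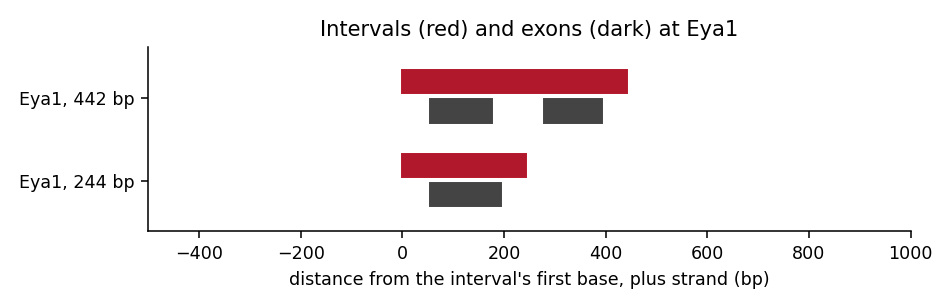
Intervals of the 2 regions at Eya1 (red bars) above the annotated exons of the gene (dark bars), by distance in bp from the interval's first base on the plus strand. Both Eya1 intervals enclose whole exons with about 50 bp to spare on each side (54 and 49 bp, 54 and 50 bp).

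The rest of the set lay where promoters are. The interval covered its anchor TSS, the transcript start nearest its midpoint, in 1281 of 1488 regions (86.1%, exact 95% interval 84.2% to 87.8%). The body of the peak lay downstream: the midpoint was past the TSS in 1198 regions (80.5%), at a median of 194 bp into the gene, and the median interval reached 248 bp upstream and 659 bp downstream. Widths ran from 171 bp (Cdc42bpa, a kinase that acts with Cdc42) to 1997 bp (Sart1, a splicing factor), with a median of 923 bp and quartiles of 706 and 1207 bp. For comparison, replicate 1 peaks at the promoters listed in both replicates had a median width of 1136 bp, covered the TSS in 87.5% and reached 316 bp upstream and 804 bp downstream. Since width and distance took part in the choice of the regions, these are descriptions and were not tested. Peaks of the 723 promoters listed in replicate 2 only had a median width of 162 bp and covered the TSS in 17.2%, so the 2 lists differed in the kind of interval they hold.

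**Figure D2:**
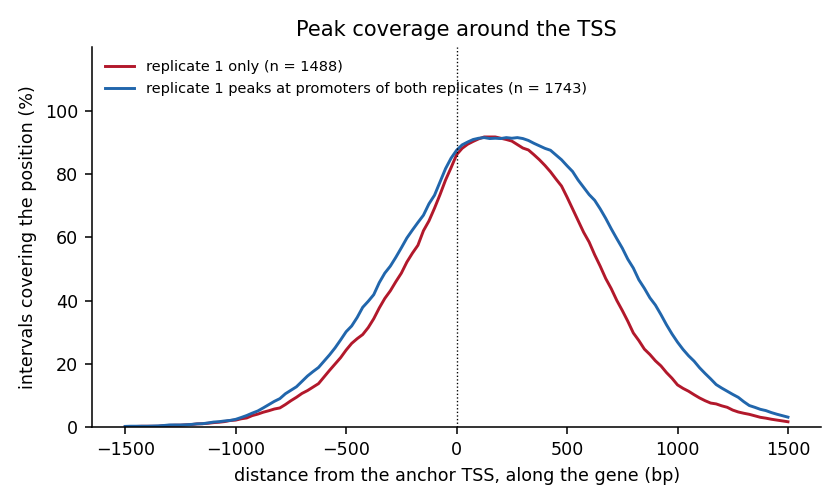
Share of intervals (y axis, %) that cover each position around the anchor TSS (x axis, bp, positive into the gene) for the 1488 regions (red) and for replicate 1 peaks at the 1743 promoters of both replicates (blue). The red curve is 86.1% at the TSS, peaks at 91.7% at 125 to 150 bp downstream and falls to 36.9% at 750 bp, inside the blue curve on both sides.

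The anchor belonged to a protein-coding gene in 1467 regions (98.6%), with 750 anchors on the plus strand and 738 on the minus strand. The exceptions included Terc, the RNA template of telomerase (midpoint 326 bp into the gene), and Scarna2, a small Cajal body RNA (247 bp). Many intervals took in alternative starts: a median of 3 annotated TSS positions lay inside, 328 regions held at least 5, and Odf2 and Camk2d held 16 each. Exon sequence made up a median of 35.9% of an interval (quartiles 20.9% and 60.2%), 71 regions were wholly exonic and 50 held no exon base. The autosomes held from 4.94 regions per 100 protein-coding genes (chromosome 7) to 8.71 (chromosome 12), whereas the X chromosome held 10 regions, or 1.05 per 100 genes, and the Y chromosome, with 183 genes, held 0. The X also held few promoters of the other classes, 9 in both replicates and 0 in replicate 2 only.

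At 24 genes there were 2 separate regions, which in 19 of them were less than 600 bp apart. Chd7, a chromodomain remodeller mutated in CHARGE syndrome, had intervals of 718 and 871 bp (chr4:8690534-8691251 and chr4:8691376-8692246) with a gap of 124 bp. Eed, a core subunit of the polycomb complex PRC2, had intervals of 781 and 670 bp with a gap of 108 bp, and the Ran GTPase gene had a gap of 214 bp. At Mia3 (22664 bp) and Ninl (28936 bp) the regions were anchored at starts of the gene far apart. The 1488 regions used 1485 distinct anchor TSSs, so few sequence windows were counted more than once.

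CpG content placed nearly all of the regions among CpG-island promoters. In the 1001 bp centred on the anchor TSS, 1339 of 1488 (90.0%, exact 95% interval 88.3% to 91.5%) met an observed/expected CpG ratio of at least 0.6 and a GC content of at least 50%. The median ratio was 0.79 (quartiles 0.70 and 0.89) and the median GC content 62.1%. The 5′ ends of all 21938 protein-coding genes, placed at the most upstream annotated start rather than the one nearest a peak, met the limits in 44.4%, with a median ratio of 0.55. On that same most upstream start the regions met them in 81.7%. The highest ratios belonged to the regions at Chd7 (1.18), the forkhead factor Foxk2 (1.17) and Purb (1.12), a purine-rich element binding protein. Apart from the microRNA inside Eya1, the lowest were at Atxn7l2 (0.24) and Dlg4 (0.24), the latter a postsynaptic scaffold gene.

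Compared with the promoters of both replicates, 91.9% of which were CpG-rich, the share was 1.92 points lower (95% interval of the difference -3.94 to 0.0548), which did not pass Fisher's exact test (two-sided p = 0.0638, adjusted over 2 comparisons 0.0638). Stricter limits changed this: at a ratio of at least 0.75 and a GC content of at least 55%, 58.4% against 70.7% were CpG-rich (Fisher's exact p = 2.76e-13). The gap was smaller among narrower intervals. Among those under 1000 bp the shares were 53.9% of 856 against 58.6% of 631 (exact p = 0.0724), and at the main limits the sign turned, with 88.2% against 85.6% (exact p = 0.138). Compared with promoters of replicate 2 only, 84.5% CpG-rich, the regions were 5.48 points higher (2.53 to 8.64, exact p = 2.49e-04, adjusted 4.98e-04), a difference that was absent at the stricter limits (58.4% against 60.6%, exact p = 0.333). Without the 2 regions at Eya1 the share was 90.1%, with an exact p of 0.0827 against both replicates and of 1.79e-04 against replicate 2 only. Promoters within a list are not biological replicates, so these tests and the motif tests compare the lists of single libraries.

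**Figure D3:**
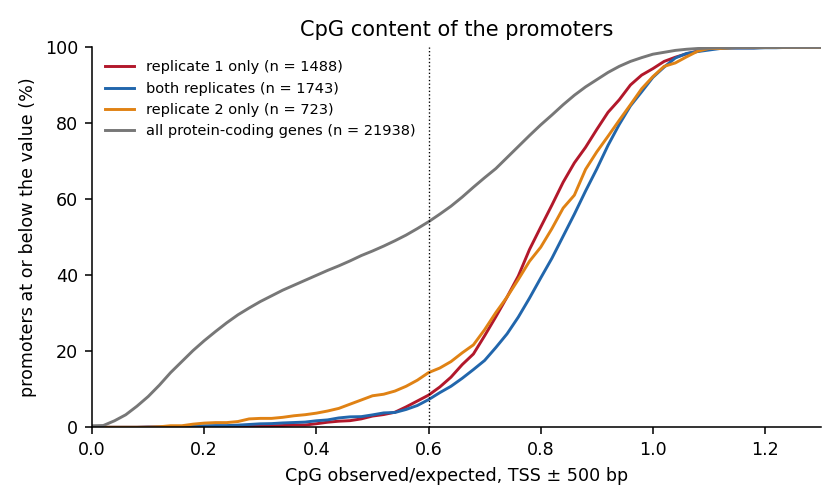
Cumulative share of promoters (y axis, %) by the CpG observed/expected ratio within 500 bp of the TSS (x axis), for the 1488 regions (red), promoters of both replicates (blue), of replicate 2 only (orange) and the 5′ ends of all protein-coding genes (grey); the dotted line marks 0.6. The classes from the peak lists run close together with medians of 0.79, 0.84 and 0.81, to the right of all genes at 0.55.

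The 149 regions that were not CpG-rich still sat at the TSS, which 84.6% of them covered, against 86.3% of the CpG-rich ones, and their median width was 854 bp against 932 bp. The SP motif was found in 15.4% of them against 27.9%, and the CCAAT motif in 35.6% against 34.1%. The 207 regions that did not cover their TSS were narrower (median 682 bp against 962 bp) and lay deeper in the gene (median midpoint 415 bp against 175 bp), with an ETS match in 11.1% against 22.2%. These splits were drawn on the regions themselves and carry no test.

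Of 13 motifs searched on both strands from 250 bp before to 50 bp after the TSS, at least 1 was found in all but 355 regions (23.9%), while 108 held 3 and 24 held 4. These counts are not given for other genes, so they do not set the regions apart. The most frequent motif, CCAAT, was no more frequent in this window than over all genes. CCAAT was found in 34.2%, the SP motif in 26.6%, ETS in 20.7%, the E-box in 11.7%, and NRF1, YY1 and E2F (TTCCCGCC) in 5.24% each. CRE was found in 3.70%, the ZFX motif (AGGCCTGG) in 3.36%, RE1 in 2.42%, BANP in 1.75% and the SIX2 motif in 0.269%. A TATA box (TATAAA on the gene strand, starting 40 to 15 bp before the TSS) was found in 0.806%, or 12 regions, among them Snrpg, a core spliceosome protein, and Hist1h1b, a linker histone. Over the 5′ ends of all protein-coding genes the shares were 39.0% for CCAAT, 14.5% for SP, 10.8% for ETS, 7.75% for the E-box, 2.48% for NRF1, 1.70% for YY1, 2.96% for E2F, 2.43% for CRE, 2.75% for ZFX, 2.96% for RE1, 0.898% for BANP, 0.173% for SIX2 and 2.59% for TATA. Those windows sit at the most upstream 5′ end and the ones of the regions at the start nearest the midpoint. At the most upstream 5′ end CCAAT was found in 39.5% of the regions and ETS in 19.6%. In 12 regions matches of different motifs overlapped, as in E-box and NRF1 or ETS and SP.

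In the main window, from -250 to +50 bp, the ETS motif was found more often than in either of the other classes. It was found in 308 of 1488 regions (20.7%, 18.7% to 22.8%), against 258 of 1743 promoters of both replicates (14.8%, 13.2% to 16.6%) and 111 of 723 of replicate 2 only (15.4%, 12.8% to 18.2%). The differences were 5.90 points (95% interval 3.26 to 8.56) and 5.35 points (1.91 to 8.59), with Fisher's exact p adjusted by Benjamini-Hochberg over the 13 motifs of 1.61e-04 and 0.0258. Among intervals under 1000 bp the shares were 22.9% and 17.3% (adjusted exact p = 0.0603 against both replicates). In the 200 bp around the interval's midpoint, which mostly lies downstream of the TSS, they were 7.26% and 6.31% (adjusted exact p = 0.532), and 5.39% for replicate 2 only (0.300).

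CCAAT, the NF-Y motif, was found in 34.2% against 29.7% of promoters of both replicates, a difference of 4.49 points (1.26 to 7.71, adjusted exact p = 0.0415). This call ended where the anchor was the most upstream 5′ end (39.5% against 35.3%, adjusted exact p = 0.0625), where a replicate 2 peak within 500 bp counted as shared (0.102) and among intervals under 1000 bp (0.0854). NRF1 matches were found in 5.24% against 2.63% of promoters of replicate 2 only, 2.61 points higher (0.848 to 4.18, adjusted exact p = 0.0258), and against 4.19% of those of both replicates, where the interval of the difference ran from -0.408 to 2.56 points (adjusted p = 0.470). Around the interval's midpoint the NRF1 difference did not pass (0.672% against 0.138%, adjusted exact p = 0.300).

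RE1 was found less often in the regions than in promoters of replicate 2 only. It matched in 36 regions (2.42%), against 4.56% of promoters of replicate 2 only (adjusted exact p = 0.0379) and 3.79% of those of both replicates (-1.37 points, unadjusted interval -2.57 to -0.155, adjusted p = 0.109). Within 200 bp on the interval's midpoint RE1 was found in 1.95% of the regions, 4.70% of promoters of both replicates (adjusted exact p = 2.07e-04) and 10.5% of those of replicate 2 only (2.11e-16). That window is wider than the median peak of replicate 2 only (162 bp) and far narrower than the median region (923 bp). Interval width therefore enters this comparison and was not separated from it. The call against replicate 2 only ended with the most upstream 5′ end (2.76% against 4.29%, adjusted exact p = 0.237), with protein-coding anchors (2.47% against 3.80%, 0.316) and with replicate 2 peaks within 500 bp counted as shared (2.49% against 4.56%, 0.0569). Over whole intervals, which differ in width between the classes, 149 regions (10.0%), 17.8% and 10.4% held a match. Most of the matches in the regions had 2 mismatches.

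The E-box difference did not pass in the main window against both replicates (11.7% against 9.18%, adjusted exact p = 0.0884) or replicate 2 only (8.58%, 0.0895), and the SP motif differed by 1.02 points (-2.00 to 4.07) and -0.496 points (-4.50 to 3.38). Matches of the SIX2 motif were too few to compare, at 4, 3 and 0. The ETS, NF-Y and NRF1 calls in the main window held without the 2 regions at Eya1, and so did that for RE1 against replicate 2 only (adjusted exact p = 0.0381).

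**Figure D4:**
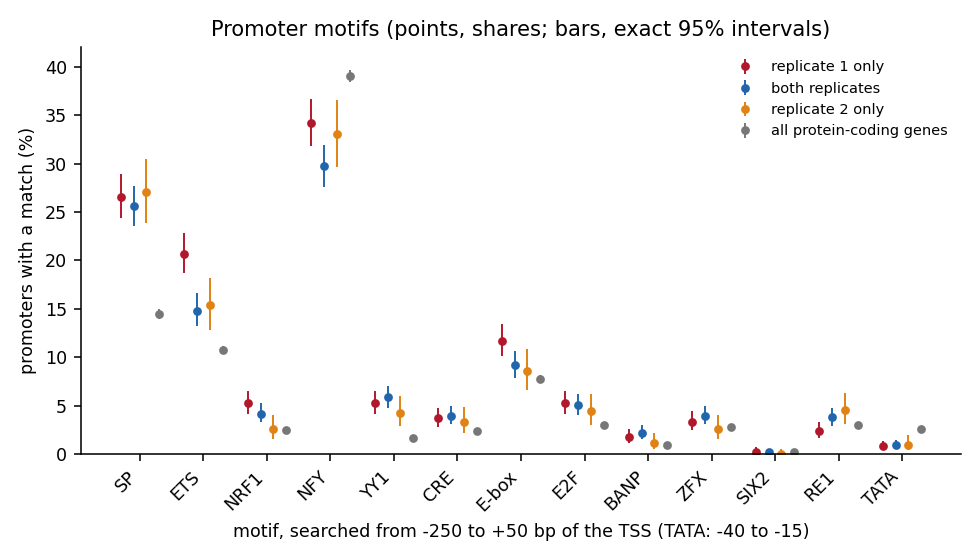
Share of promoters with a match (y axis, %) for each of the 13 motifs (x axis), for the 1488 regions (red), promoters of both replicates (blue), of replicate 2 only (orange) and the 5′ ends of all protein-coding genes (grey); bars are exact 95% intervals, which cover counting error only. ETS stands at 20.7% in the regions and at 14.8%, 15.4% and 10.8% in the others, and CCAAT at 34.2% in the regions and 39.0% over all genes, whose windows sit at the most upstream 5′ end.

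Matches of several motifs had preferred places. Within 500 bp of the TSS, the centres of ETS matches had a median of 24 bp upstream, BANP 46 bp, SP 52 bp, CRE 63 bp, NRF1 66 bp and CCAAT 110 bp. The CCAAT matches were spread broadly upstream, with 19.6% of 1798 in the last 100 bp before the TSS. They were most frequent from 75 to 50 bp before it (118 matches). BANP was the most concentrated, with 57.1% of 70 matches in the last 100 bp before the TSS. Matches were counted on each strand, so a BANP site that reads alike on both strands was counted on each. YY1 lay just inside the transcript, at a median of 17 bp downstream, and was read on the gene's own strand in 81.3% of 134 matches, as in the sequences of Prmt1 and Rab3gap1 above. RE1 matches were spread over the whole window, with 57.3% of 157 downstream of the TSS and a median of 82 bp downstream. ZFX matches were also scattered, with 67.5% of 206 downstream and a median of 122 bp downstream. These positions are a description of the regions and were not compared with the other classes.

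The genes served were counted over protein-coding genes whose most upstream 5′ end lay within 1 kb of a region. There were 1332 such genes of 21938, or 6.07%. The share was 7.04% for promoters of both replicates and 2.48% for those of replicate 2 only, and 25 of the 1332 genes also had a single promoter of both replicates within 1 kb. Each gene list below is read against 6.07% as a count, with no test, and the lists were drawn up with earlier results of these data known. Promoters of divergent pairs were left out of the regions, but genes of such pairs stay in the lists and in the 21938 genes. Outside such pairs 1330 of 19554 genes had a region within 1 kb. Lists with many paired genes therefore have lower shares than they would have outside pairs. For DNA repair genes the share outside pairs was 22.9%, and for mitochondrial ribosomal proteins 20.0%. A gene whose region lay at an internal start, more than 1 kb from its most upstream 5′ end, is not in these counts, and some such genes are named beside their list. In the regions as in the other classes, tissue-restricted families were nearly empty: 0 of 1464 olfactory and vomeronasal receptor genes (exact upper limit 0.252%), 0 of 110 keratin genes (3.30%) and 2 of 194 cytokine and immune receptor genes, Cd164 and Cd276, with a region at an internal start of Cd47.

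The lists of kidney transcription factors and nephron progenitor markers are short, and the counts of their genes with a region were small. Their shares were not below the 6.07% of all genes, and their exact intervals include that value. Among 50 transcription factors of the kidney 4 (8.00%, exact interval 2.22% to 19.2%) had a region. The same number had one of both replicates. Six2, which keeps nephron progenitors undifferentiated, had a CpG-rich region (observed/expected 0.94) of 1137 bp inside the gene at chr17:85686860-85687996. That region began 258 bp past the anchor TSS, and its window held SP and CCAAT matches. Emx2, a homeodomain factor required for the urogenital system, had a region of 1583 bp centred 20 bp from its anchor. Etv5, an ETS factor downstream of Ret signalling, had a region of 906 bp over its TSS, and Meis2, a TALE homeodomain factor, had a 614 bp region that lay 453 bp from a replicate 2 peak. Regions at internal starts were found at Mycn, a proto-oncogene transcription factor, and Rara, a retinoic acid receptor. Of the markers of nephron progenitors 1 of 8 (12.5%, exact interval 0.316% to 52.7%), Six2, was counted, beside the internal Eya1 region described above. Markers of ureteric bud, podocytes, endothelium and neurons had none, and of the stromal markers Pdgfra had a region at an internal start only. Of 39 Hox genes 2 had a region, Hoxb7 among them. Foxk1 and Foxk2 were the 2 of 63 Fox and Sox genes. Of 23 loci that the study named as raised by Eya1, Chd7 and Six2 (8.70%, against 30.4% in both replicates) were counted. That list was chosen on these samples and so is no independent evidence. Bahcc1, also on the list, had a region of 1626 bp over an internal start. Etv5, which the study elsewhere reported as lower without Eya1, is not among the 23. Of 9 loci named as repressed by Eya1, 0 had a region (exact upper limit 33.6%), against 33.3% with a promoter of both replicates. The lists of raised and repressed loci are too short to compare.

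In the Wnt pathway 6 of 44 genes (13.6%) had one: the receptors Fzd1, Fzd3 and Fzd8, the adaptor Dvl2, the kinase Gsk3b and the corepressor Tle4. Their intervals ranged from 879 bp (Fzd3) to 1901 bp (Fzd1), and all 6 anchors were CpG-rich. In the Fgf and Gdnf receptor pathway 4 of 38 (10.5%) had one, among them the MAP kinase phosphatase Dusp6 (1805 bp), the kinase Map2k1 (1271 bp) and Nras (1042 bp). Fgfr2 was counted only through a 505 bp region that lay 672 bp from its most upstream annotated end. That region covered the 5′ end of Ctbp2, where it was anchored, and it is counted again for Ctbp2 below. Whether it serves Fgfr2 was not tested. Notch2, its processing protease Adam10 and the Notch inhibitor Numb were the 3 of 33 Notch pathway genes counted, and Rbpj, the DNA-binding factor of the pathway, had a region at an internal start. In the Bmp and TGF-beta pathway 2 of 33 genes (6.06%) had one, Smad2 and its antagonist Ski, against 30.3% with a promoter of both replicates.

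Lists of chromatin regulators, histone genes apart, had higher shares than the 6.07% of all genes in the regions, and higher ones still in both replicates. That 6.07% also counts families such as the olfactory receptor genes, which had no region. Among Rest and its corepressors 5 of 19 genes (26.3%, against 36.8% in both replicates) had a region: Rcor1 and Ctbp2, scaffolds of the CoREST and CtBP complexes, Sin3a, Cdyl2 and L3mbtl2. The Rcor1 region (926 bp) lay 62 bp and that of Ctbp2 (505 bp) 699 bp from a replicate 2 peak. Of histone methylation, acetylation and polycomb genes 13 of 86 (15.1%, against 24.4%) had one. They include polycomb genes (Bmi1, Cbx2, Eed, Ezh2 and Mtf2), acetyltransferases (Crebbp, Kat2a and Kat8), the demethylases Kdm1b and Kdm3a, the H3K79 methyltransferase Dot1l, and the DNA methylation genes Dnmt3b and Tet2. Dnmt3a, Tet3 and Jarid2 had regions at internal starts. The Ezh2 interval was 1784 bp and the Bmi1 interval 859 bp, each over its TSS. Of BAF and other remodellers 6 of 44 (13.6%, against 38.6%) had one: the BAF ATPase Smarca4 (815 bp), the BAF subunits Bcl7b, Bcl7c and Dpf2, and the chromodomain genes Chd1 and Chd7. A further chromodomain gene, Chd8 (1090 bp), and the BAF subunits Actl6a and Smarcd3 had regions at internal starts. Smarcc2 had none. Of 80 histone genes 5 (6.25%) had one, with H2afx in a 368 bp interval that lay 177 bp from a replicate 2 peak.

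Cell cycle genes had a region in 10 of 81 cases (12.3%, against 11.1% in both replicates). The list held E2F family members and their partner, with E2f1 (1828 bp), E2f4 (1434 bp), E2f5, E2f6 and Tfdp2, and Rbl2, the pocket protein p130. Others were the mitotic genes Ccnb1 and Bub3 and the replication genes Mcm6 and Rfc3. All 10 anchors were CpG-rich. Gins1, a replication gene, had a region at an internal start. DNA repair genes had one in 8 of 56 cases (14.3%), against 3.57% in both replicates: the checkpoint kinase Atr, Mdm2, Trp53bp1, Rad52, Xrcc2, Ercc1, Ung and Lig1, the last reached from a region anchored at Zswim9. All 8 regions covered their anchor TSS.

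Among genes of protein synthesis, cytosolic ribosomal proteins had a region in 15 of 80 cases (18.8%, 10.9% to 29.0%, against 24 of 80 in both replicates), such as Rpl11 (1344 bp), Rpl28 (1149 bp) and Rps19 (1755 bp). Mitochondrial ribosomal proteins had one in 9 of 78 cases (11.5%), among them Mrps26, Mrps28, Mrps15, Mrps17 and Mrpl53, and aminoacyl-tRNA synthetases in 4 of 35 (11.4%), Wars2, Gars, Nars2 and Vars. Translation initiation and elongation factors had one in 3 of 68 (4.41%), against 23.5% in both replicates. The list of splicing factors, which also took in helicase genes of the Ddx and Dhx series, had 13 of 175 (7.43%), against 25.1%. Such helicases, Ddx50, Ddx52 and Dhx36 among them, are part of the 13, so these shares are not of splicing factors alone. RNA polymerase, general factor and Mediator subunits had 10 of 105 (9.52%), all covering their TSS, with the largest polymerase subunit gene Polr2a among them.

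Proteasome subunits had a region in 7 of 48 cases (14.6%), such as Psmd1 (1165 bp), Psmc3, Psmd4, Psmc4 and Psmd7, and ubiquitin enzymes and F-box proteins in 31 of 332 (9.34%). Chaperones had one in 7 of 78 cases (8.97%) and mitochondrial import genes in 3 of 25. Membrane trafficking genes had one in 21 of 203 cases (10.3%), with the syntaxins Stx6 and Stx12 among them. Cilium and centrosome genes had one in 11 of 93 (11.8%), including the intraflagellar transport gene Ift22 and the centrosomal genes Cep41 and Cep70. Zinc finger genes of the Zfp and Zbtb series had one in 44 of 461 (9.54%, 7.02% to 12.6%, against 14.5% in both replicates). Respiratory chain genes had one in 7 of 105 cases (6.67%), close to the 6.07% of all genes. That list held many genes of divergent pairs, and the share was 10.4% of its 67 genes outside such pairs. Solute carriers had one in 16 of 342 cases (4.68%, 2.70% to 7.49%, against 2.05% in both replicates) and kinesins and septins in 2 of 52 (3.85%).

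**Figure D5:**
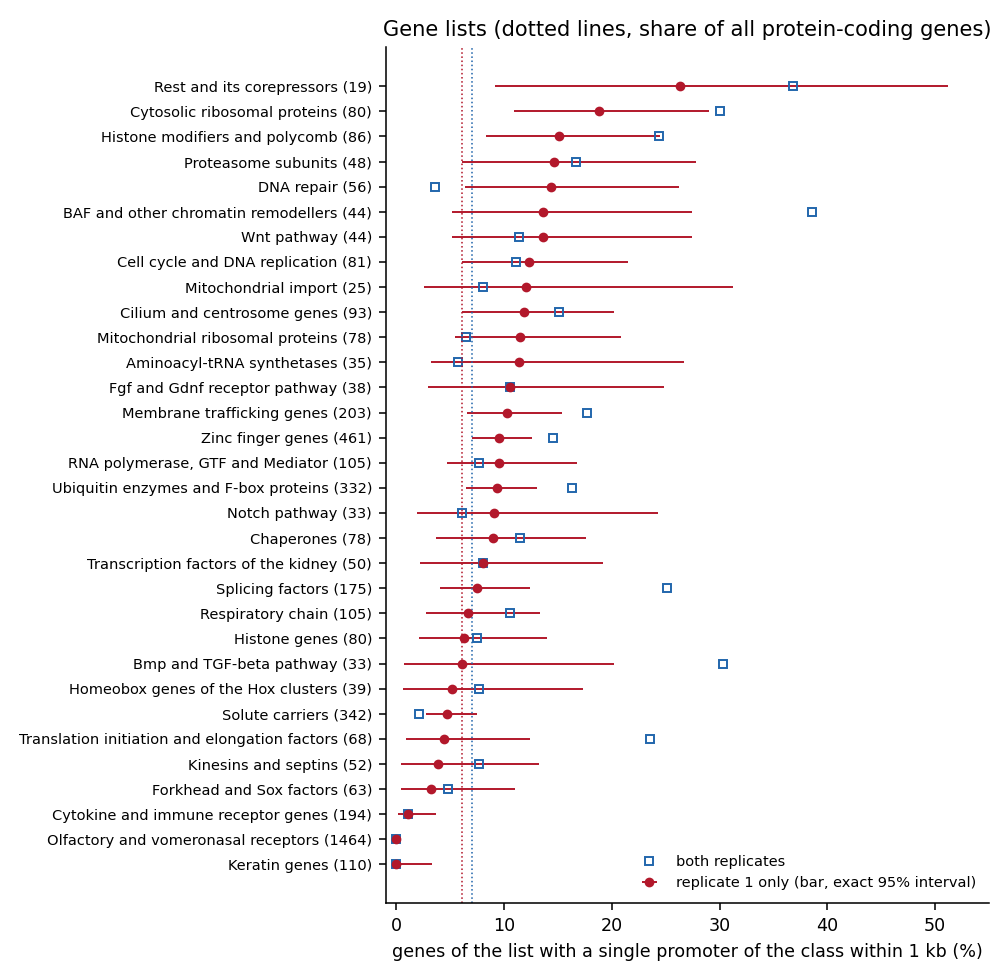
Share of the genes of each list drawn (number of genes in brackets) with a single promoter within 1 kb of the 5′ end (x axis, %), in replicate 1 only (red points, bars for exact 95% intervals) and in both replicates (blue squares). Dotted lines mark the shares over all protein-coding genes, 6.07% and 7.04%. Lists of fewer than 19 genes and the lists of study loci are not drawn. The list of splicing factors also holds Ddx and Dhx helicase genes. Genes of divergent pairs are counted in every list, although promoters of such pairs were left out. Rest and its corepressors (26.3%) and cytosolic ribosomal proteins (18.8%) lead the red points, and keratin and olfactory receptor genes are at 0.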

How the data were processed

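Peaks of Eya1 ChIP-seq in E13.5 mouse kidney were taken from the tables deposited by the authors, 1 per ChIP replicate, whose values are start and end coordinates (mm10) with no score, p-value or read depth. By the study's methods reads were aligned with Bowtie and peaks called with MACS against input or IgG control, while the submitters' processing notes name HISAT2; the cutoff and control behind each list are not given in the sources used here. Peaks sharing at least 1 bp were merged, and 11 replicate 2 peaks outside the nuclear chromosomes were left out. TSSs and genes came from GENCODE M21 and sequence from the RefSeq assembly GRCm38.p6.

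The regions, motifs and gene lists were chosen with earlier results of these data known. Each interval was anchored to the transcript start nearest its midpoint, protein-coding transcripts preferred. CpG content was computed in 1001 bp around it and motifs from -250 to +50 bp, exact matches except RE1. Classes were compared with two-sided Fisher's exact tests, adjusted by Benjamini-Hochberg over 13 motifs or 2 CpG comparisons, and shares carry exact Clopper-Pearson 95% intervals, differences Newcombe intervals. Gene lists were counted and not tested. Genes named are those of the kidney, signalling, chromatin, cell cycle and study lists, up to 5 per other list by position, extremes of width and CpG content, regions next to each limit, those with the motif matches nearest the TSS, and those at Eya1 and Smarcc2; other names were chosen after their values were seen. Alternatives in anchor, window, limits and overlap were computed. The code (Python 3.11.15, pandas 2.3.3, scipy 1.17.1, pysam 0.24.0) was tested on simulated data. Some genes of these lists are not reported here.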

Additional observations from a re-analysis of the deposited data

How the results depend on the processing

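Over 7 results and 39 alternatives, 5 of them chosen after seeing the data, 21 kept the direction and the side of the threshold. In 5 more the number of motif calls stayed within 1.5 times but the motifs called were not the same. Without replicate 2 the count of regions was 3231 by construction; other limits gave 1338 to 1499. Against both replicates, the CpG-rich difference was -2.11 points on whole intervals, -12.3 at the stricter CpG limits, -2.42 with replicate 2 peaks within 500 bp counted as shared and -2.35 with protein-coding anchors, all with p under 0.05, and reversed to 2.62 among intervals under 1000 bp. Against replicate 2 only it reversed to -2.18 at the stricter limits. Motif calls against both replicates, 2 in the main window, numbered 5 within 500 bp of the TSS (E-box, ETS and NF-Y higher, RE1 and ZFX lower), 1 with the most upstream 5′ end (ETS), 1 with replicate 2 peaks within 500 bp counted as shared (ETS) and 0 among intervals under 1000 bp, where fewer regions were tested. Around the midpoint they were BANP higher and RE1 lower. Against replicate 2 only, the 3 calls (ETS and NRF1 higher, RE1 lower) became E-box higher and RE1 lower around the midpoint, and RE1 was lost with the most upstream 5′ end, with protein-coding anchors and with replicate 2 peaks within 500 bp counted as shared. With the most upstream 5′ end 81.7% of the regions were CpG-rich and 65.9% covered it; without replicate 2 these were 91.0% and, for the TSS nearest the midpoint, 86.9%. Where not stated, the cause was not tested. Without replicate 1 no region remains, so no value was computed. No paired analysis was possible because the regions come from 2 samples of 1 group and no groups of samples were compared. The lists give no depth, so absence from replicate 2 cannot be told from a peak below its cutoff.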

Other observations

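The edges of all 1488 regions were compared with annotated exons. In 8 of them both ends lay 40 to 65 bp outside exons of 1 gene: the 2 at Eya1 and 1 each at Msra, Ppdpf, Ptbp3, Zfp691, Cenpa and Mrps17, which were named after their values were seen. The other 6 all covered their anchor TSS. In Eya1, replicate 1 also listed peaks of 206, 260, 317, 244 and 253 bp that each enclosed 1 exon and did not meet the rule for promoters, and a peak of 4931 bp.

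At the proximal end of chromosome 9, below 3.2 Mb, replicate 1 listed 4 peaks and replicate 2 listed 0. Of these, 2 met the rule, among them a 179 bp interval at the predicted gene Gm10719 with a GC content of 33.9% around its anchor, against a median of 62.1% over the regions.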
